A study of Rattus norvegicus with 26 samples.

Results

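Star miRNAs were measured in the livers of male rats after partial hepatectomy (PH), the surgical removal of part of the liver. They comprise all miRNAs on the array whose name ends in an asterisk, with 1 name left out, which gives 239 of the 677 miRNAs measured. Total RNA of 26 rats was hybridized to 1-colour Agilent rat miRNA arrays, 1 array per rat. The right lobes came from 3 normal livers without PH, and from livers left behind for 6, 12, 24 or 36 h by removal of the left lateral lobe (1/3PH) or by the larger 2/3PH. Each group held 3 arrays, except 1/3PH at 6 h with 2. The rats were Sprague-Dawley rats without any transgene, their age was not given in the sources used here, and normal livers carry sham as their protocol label although the study describes these rats as not operated. The labels separate the samples by rat, and the p-values measure the spread between rats together with that between arrays.

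A miRNA hairpin is cut by Drosha and Dicer into a duplex of 2 strands. One strand, the guide, is usually kept in an Argonaute protein and directs the silencing of mRNAs through its seed, bases 2 to 8, and the other strand, the passenger or star strand, is usually released and degraded. The asterisk was the older naming for the strand found less often, and current names give the arm of the hairpin (5p or 3p) instead. Both strands come from the same transcript, so the ratio of star to guide compares the amounts left after both were made, and in some hairpins or tissues the star strand is the one that is kept.

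The sequences shown here belong to the pairs that carry the results on levels and ratios. They are the mature strands in RefSeq for the assembly GRCr8, 5′ to 3′, with the seed in capitals. The arm behind each asterisk was assigned from current nomenclature, since the array names give no arm. RefSeq held the star strand of 14 and the guide of 13 of the 18 hairpins whose star was called on all arrays of some group.
miR-652* (miR-652-5p): aCAACCCUaggagggggugccau
miR-652 (miR-652-3p): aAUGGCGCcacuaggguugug
miR-511* (miR-511-3p): aAUGUGUAgcaaaagacagga
miR-511 (miR-511-5p): cAUGCCUUuugcucugcacuc
miR-122* (miR-122-3p): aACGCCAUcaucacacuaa
miR-122 (miR-122-5p): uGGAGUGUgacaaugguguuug
miR-30a* (miR-30a-3p): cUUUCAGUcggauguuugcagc
miR-30a (miR-30a-5p): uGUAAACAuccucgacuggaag

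miR-652* lies at chrX:111140088-111140110 on the plus strand, inside the gene Tmem164. miR-511* lies at chr17:82188001-82188021 on the plus strand, inside Mrc1, which encodes the mannose receptor CD206 of macrophages and liver sinusoidal endothelial cells. miR-122* lies at chr18:61028867-61028885 and miR-30a* at chr9:33233987-33234008, both on the plus strand, and no named protein-coding gene of the reference table covered either. No 2 of the 14 star strands shared a seed, so each is a different targeting sequence. In the 12 hairpins with both strands in the table, the guide began with U in 7 and the star in 2, while A was the first base of 6 stars and 3 guides. The hairpins of miR-466b-1* and miR-466b-2* have the same guide sequence, which was counted for each of them. The number of A and U among the first 4 bases, a rough sign of the looser duplex end, averaged 2.42 in the stars and 2.33 in the guides.

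Few star miRNAs were detectable in liver. The scanner software called 41 of the 239 (17.2%) detected on at least 1 array and 7 (2.93%) on all 26 arrays, against 167 (38.2%) and 75 (17.2%) of the 437 miRNAs without an asterisk. A total of 18 stars were called on all arrays of some group, 23 more on some arrays only, 12 of these 23 on a single array, and 198 on none. A star on no array has a bound only: no level was read below a floor, the dimmest signal that the software still set well apart from background, which was 6.48 to 19.4 signal units over the arrays. An array showed between 8 and 23 detected stars.

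**Figure D1:**
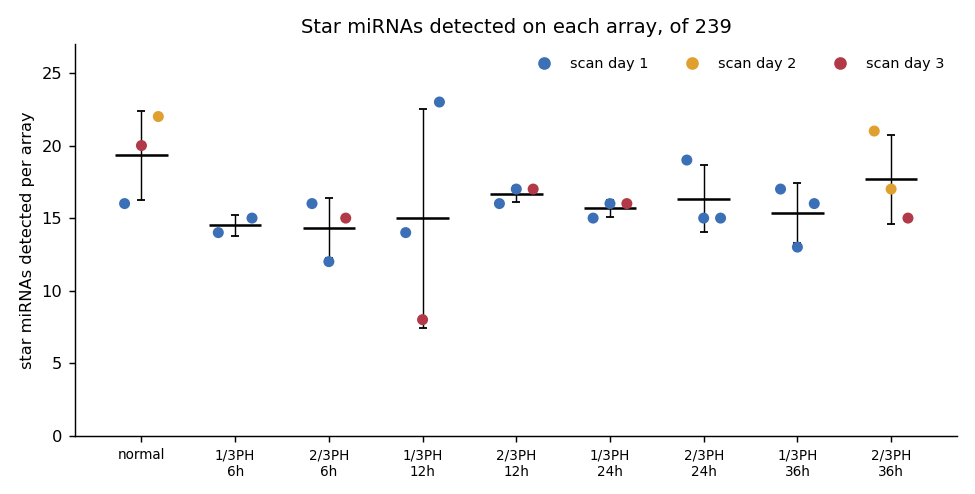
Number of star miRNAs detected on each array (y axis, of 239) by group (x axis). Each point is 1 array, coloured by scan day, and the bar and whiskers are the mean ± SD of the group. The lowest point, 8, is replicate 2 of 1/3PH 12h, and the group means lie between 14.3 and 19.3.

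The mean number per array was 19.3 ± 3.06 (SD, n = 3) in normal liver. It was 14.5 ± 0.707 (SD, n = 2) at 6 h after 1/3PH and 14.3 ± 2.08 (SD, n = 3) at 6 h after 2/3PH. The lowest normal array had 16 detected stars and the highest array at 6 h also had 16. After 1/3PH the mean was 15.0 ± 7.55 at 12 h, 15.7 ± 0.577 at 24 h and 15.3 ± 2.08 at 36 h (SD, n = 3 each). After 2/3PH it was 16.7 ± 0.577, 16.3 ± 2.31 and 17.7 ± 3.06 (SD, n = 3 each). The ranges of the normal group and of 7 groups overlapped, and that of 1/3PH 6h, 14 to 15, lay below it. The number of stars detected on all arrays of a group was 10 in normal liver and ranged from 7 at 12 h after 1/3PH to 14 at 24 h after 2/3PH. The count at 12 h after 1/3PH rests on replicate 2, whose total signal over all miRNAs was 17273 units against 57382 to 93760 units on the other arrays.

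A bright guide was not enough for its star to be detected. For 68 stars the guide was detected on all 26 arrays, and 19 of these stars (27.9%) were detected on any array. For 118 stars the guide was detected on no array, and still 14 (11.9%) were detected on at least 1 array. The median guide level, on the scale set out in the next paragraph, was 0.02 for the 19 stars that were seen and -0.10 for the 49 that were not. miR-21, one of the brightest guides at a mean log2 level of 4.65, had a star that was detected on 8 arrays. The guides let-7f, let-7c and miR-29a averaged 3.03, 2.70 and 2.17, and their stars were detected on no array. miR-122, the main miRNA of hepatocytes, had the brightest guide at 7.41, and its star was detected on all 26 arrays.

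Levels are log2 signals, in which 0 is the 75th percentile of 109 probes that were bright on all arrays. Signals under the floor were set to the floor. A level depends on the probe as well as on the amount of RNA, so that levels of different miRNAs are not amounts. The 7 stars detected on every array averaged 0.16 for miR-122*, -1.23 for miR-202*, -1.63 for miR-652*, -2.70 for miR-30a*, -2.86 for miR-511*, -3.42 for miR-140* and -3.73 for miR-30e*. miR-150* was detected on 25 arrays and averaged -2.20. The other 10 of the 18 averaged -3.07 for let-7b*, -3.11 for miR-1*, -3.17 for miR-191*, -3.33 for miR-582*, -3.59 for miR-466b-1*, -3.76 for miR-296*, -4.06 for miR-31*, -4.09 for miR-466b-2*, -4.10 for miR-362* and -4.29 for miR-455*. The floor ran from -5.15 to -3.21 over the arrays, and many of these values lie near it.

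Of the 18 stars, 8 had a guide that was not detected on any array. They were miR-202*, miR-511*, miR-191*, miR-582*, miR-1*, miR-296*, miR-362* and miR-455*. The guide of miR-1*, miR-1, is the main miRNA of skeletal and heart muscle, and the other muscle markers miR-133a and miR-206 were on no array either. Among the lists by the known setting of the guide, hepatocyte and metabolic miRNAs had 9 of 17 stars detected on some array, and 4 were tested, miR-122*, miR-30a*, miR-30e* and miR-455*. Proliferation clusters and cell cycle families had 1 of 18 (miR-106b*, on 1 array), although the guide was on all 26 arrays for 10 of these. Leukocyte and inflammation miRNAs had 3 of 15, the let-7 family 2 of 8, the stellate, endothelial and vessel wall miRNAs 2 of 9. The list named brain, muscle or imprinted loci had 0 of 20. That list does not hold miR-1, miR-133a, miR-206 or miR-124, and outside it miR-1* was detected on 18 arrays and miR-124* on 1. The share over all 239 stars was 17.2%, and differences between the lists were not tested. No star of these lists passed the test in any comparison, since both stars that did so belong to none of them.

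Detection of 5 stars went with the day on which the array was scanned. The arrays were scanned on 3 days, with 17, 3 and 6 arrays. miR-191* and miR-582* were each detected on 19, miR-1* and miR-296* each on 18 and let-7b* on 17 of the 20 arrays of the first 2 days, and all 5 on none of the 6 arrays of the third day. The signal of miR-191* was 26.9 to 42.6 units on the first 2 days and 4.52 to 8.36 units on the third. That of miR-582* was 19.4 to 46.8 units and then -1.89 to 1.45 units. miR-1* gave 28.5 to 50.7 units and then 2.19 to 5.58 units, miR-296* 16.6 to 43.3 and then 1.11 to 6.46, and let-7b* 24.7 to 53.8 and then 0.171 to 8.03. For each of the 5 the ranges of the third day and of the first 2 days did not overlap.

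**Figure D2:**
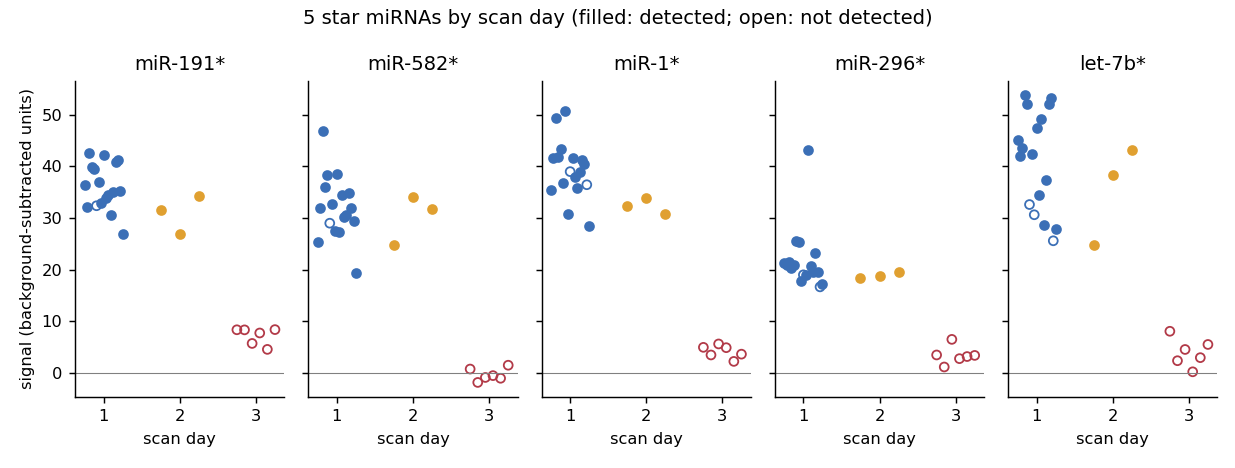
Background-subtracted signal (y axis, signal units) of miR-191*, miR-582*, miR-1*, miR-296* and let-7b* on every array, by scan day (x axis). Filled points are arrays on which the software called the miRNA detected and open points those on which it did not. For all 5 the 6 arrays of the third day lie under 9 units and are open, while the arrays of the first 2 days lie above 16 units.

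The third day held 1 array each of normal, 2/3PH 6h, 1/3PH 12h, 2/3PH 12h, 1/3PH 24h and 2/3PH 36h, and in the other 3 groups the 5 stars could be called on all arrays. At 24 h after 2/3PH, which had first-day arrays alone, they were 5 of the 14 stars on all arrays, and without them the count there was 9. Without the 5 stars the counts by group ran from 7 at 12 h after 1/3PH to 12 at 36 h after 2/3PH, with 10 in normal liver. Of the stars detected on at least 15 of the 20 arrays of the first 2 days, 5 of 13 showed it, against 4 of 113 miRNAs without an asterisk. The guides of 4 of the 5 were undetected on every array, whereas let-7b was detected on all 26. The part of the scan day, of anything that changed with it, and of the probes themselves was not tested. The strands are shown because they are unrelated in sequence, with 4 different seeds, miR-191* having no entry in the table.
miR-582* (miR-582-3p): aACCUGUUgaacaacugaaccc
miR-1* (miR-1-5p): gCACAUACuucuuuauguaccc
miR-296* (miR-296-3p): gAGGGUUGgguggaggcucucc
let-7b* (let-7b-3p): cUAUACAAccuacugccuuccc

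The ratio also went with the day in some of the pairs measured on all days, most clearly in miR-122. The star to guide ratio of miR-122 was highest on the third-day array in 6 of the 6 groups that held arrays of that day and another, by 0.47 to 0.67 on the log2 scale over the mean of the others. The third-day array was highest in 5 of 6 groups for miR-30e, in 4 for miR-30a, in 2 for miR-140, in 1 for miR-652 and in 0 for miR-150. The 3 calls that follow, and the ratios of miR-30a and miR-30e at 12 h and of miR-150 at 36 h, are also given with the scan day in the fit.

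After PH, 2 star miRNAs changed in level. miR-652* fell at 24 h and miR-511* fell at 36 h after 2/3PH, relative to normal liver. The comparison asks how star strands respond to a small and to a larger loss of liver mass. All 144 miRNAs that were called on all arrays of some group, among them the 18 stars, were tested in 1 fit. Of the 72 star values (18 stars at 4 times) against normal liver, 2 passed after 2/3PH and 0 after 1/3PH, where 4 had an unadjusted p under 0.05 in limma. Over all 144 miRNAs 10.9% of the values passed after 2/3PH and 1.22% after 1/3PH. Between the 2 operations at the same time 0 star values passed, with 3 at an unadjusted p under 0.05, and 4.51% of all values did. At 24 h after 2/3PH 1 of 18 stars passed, where 18.1% of all miRNAs passed and 8.33% passed and were lower. At 36 h it was also 1 of 18, beside 18.8% of all miRNAs and 7.64% that were lower. The median log2 change of the 18 stars was 0.02 at 24 h and 0.11 at 36 h after 2/3PH, and that of all 144 miRNAs was 0.05 and 0.06. The medians of the stars include the 5 stars whose detection went with the scan day. These 5 changed by 0.78 to 1.19 at 24 h and by 0.09 to 0.40 at 36 h. At 24 h 9 of the 18 stars were higher, all 5 among them, and 9 were lower. Normal liver held 1 third-day array and 2/3PH 24h held 0, so these medians cannot be read apart from the scan day. In the earlier hours the medians of the stars were 0.16 at 6 h and 0.06 at 12 h after 2/3PH.

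miR-652* was measured with its guide in every liver. The log2 level of miR-652* was -1.39, -1.53 and -0.99 in normal liver, and -2.15, -2.11 and -2.33 at 24 h after 2/3PH. All 3 livers at 24 h lay under all 3 normal livers. The decrease was -0.90 (SE 0.225, adjusted p = 0.0126, limma), so that the signal was 1.86-fold lower. In the livers taken 24 h after 1/3PH the levels were -1.77, -1.26 and -2.38, which overlapped the normal livers, and the change was -0.50 (adjusted p = 0.342, limma). The difference of miR-652* between the operations at 24 h was -0.39 and did not pass (SE 0.225, adjusted p = 0.698, limma). By 36 h after 2/3PH miR-652* was at -1.38, -1.54 and -1.59, and after 1/3PH at -1.41, -1.21 and -1.36, and 2 of these 6 livers lay just under the lowest normal liver. At 6 h the 2/3PH livers had levels of -1.60, -1.81 and -1.86 and the 1/3PH livers -1.52 and -1.57, and 4 of these 5 livers lay below the lowest normal liver. At 12 h the 1/3PH livers had -1.46, -2.11 and -1.32 and the 2/3PH livers -1.55, -1.37 and -1.80. With the scan day as a block the decrease at 24 h was -1.05 (adjusted p = 0.00115, limma), and within the first scan day, which left 1 normal liver, it was -0.81 (adjusted p = 0.0281, limma). It did not pass without normal replicate 3 (-0.74, adjusted p = 0.0619) or without 2/3PH 24h replicate 3 (-0.83, adjusted p = 0.0548), nor without scaling (-0.97, adjusted p = 0.524), with the 75th percentile over all probes (-1.36, adjusted p = 0.227) or with normexp (-0.31, adjusted p = 0.993, limma).

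The guide miR-652 took another course. Its log2 level was -2.15, -2.89 and -2.65 in normal liver. At 6 h it was -1.95 and -1.95 after 1/3PH and -1.91, -1.97 and -2.41 after 2/3PH. Of these 5 livers, 4 lay above the highest normal liver, and the changes were 0.61 (adjusted p = 0.765) and 0.47 (adjusted p = 0.405, limma). At 24 h the guide was at -2.97, -3.05 and -3.40 after 2/3PH, and at 36 h at -3.18, -3.23 and -3.12. All 6 of these livers lay under the lowest normal liver, with changes of -0.58 (adjusted p = 0.0875) and -0.61 (adjusted p = 0.0601, limma). After 1/3PH the guide was at -3.36, -2.97 and -2.94 at 24 h, also under all normal livers, and at -2.63, -3.05 and -3.14 at 36 h. The changes there were -0.52 (adjusted p = 0.342) and -0.37 (adjusted p = 0.715, limma). None of these changes of the guide passed the test.

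The ratio of miR-652* to miR-652 was lower at 6 h than in normal liver. A ratio within an array does not depend on the scaling of the array, but its size depends on the probes of the strands, so that only its change between groups is read. The log2 ratio was 0.76, 1.37 and 1.67 in normal liver. It was 0.31, 0.16 and 0.55 at 6 h after 2/3PH, and 0.43 and 0.38 after 1/3PH. The 5 livers at 6 h lay under all 3 normal livers. The change was -0.92 (SE 0.269, adjusted p = 0.0365, limma) after 2/3PH, a ratio 1.90-fold lower, and -0.86 (SE 0.301, adjusted p = 0.137, limma) after 1/3PH. The difference between the operations at 6 h was -0.06 (SE 0.301, adjusted p = 0.991, limma). The test covered 14 pairs of strands, 10 of them a star with its guide and 4 named by arm, and 7.14% of them, this 1 pair, passed at 6 h after 2/3PH.

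The ratio of miR-652 was higher again at the later hours. At 12 h it was 0.76, 0.85 and 0.87 after 1/3PH and 1.11, 0.83 and 0.93 after 2/3PH, and all 6 livers lay above all those at 6 h. At 24 h it was 1.58, 1.71 and 0.56 after 1/3PH and 0.82, 0.94 and 1.06 after 2/3PH. At 36 h it was 1.22, 1.84 and 1.78 after 1/3PH and 1.81, 1.70 and 1.52 after 2/3PH, and the groups overlapped normal liver. At 24 h after 2/3PH the star and the guide were both lower than in normal liver and the change of the ratio was -0.32 (adjusted p = 0.67, limma). The call at 6 h was lost with the scan day as a block (-0.80, adjusted p = 0.129) and without normal replicate 3 (-0.72, adjusted p = 0.322, limma). It was also lost with the slide as a fixed block (-0.68, adjusted p = 0.271) and in the fit of only the groups compared (adjusted p = 0.196, limma). Of the normal livers, only replicate 1 was on the slide that held replicates 1 and 2 of both groups at 6 h. The 1 normal liver of the first scan day had the lowest of the 3 normal ratios, 0.76, and within that day the change was -0.52 (adjusted p = 0.368, limma).

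**Figure D3:**
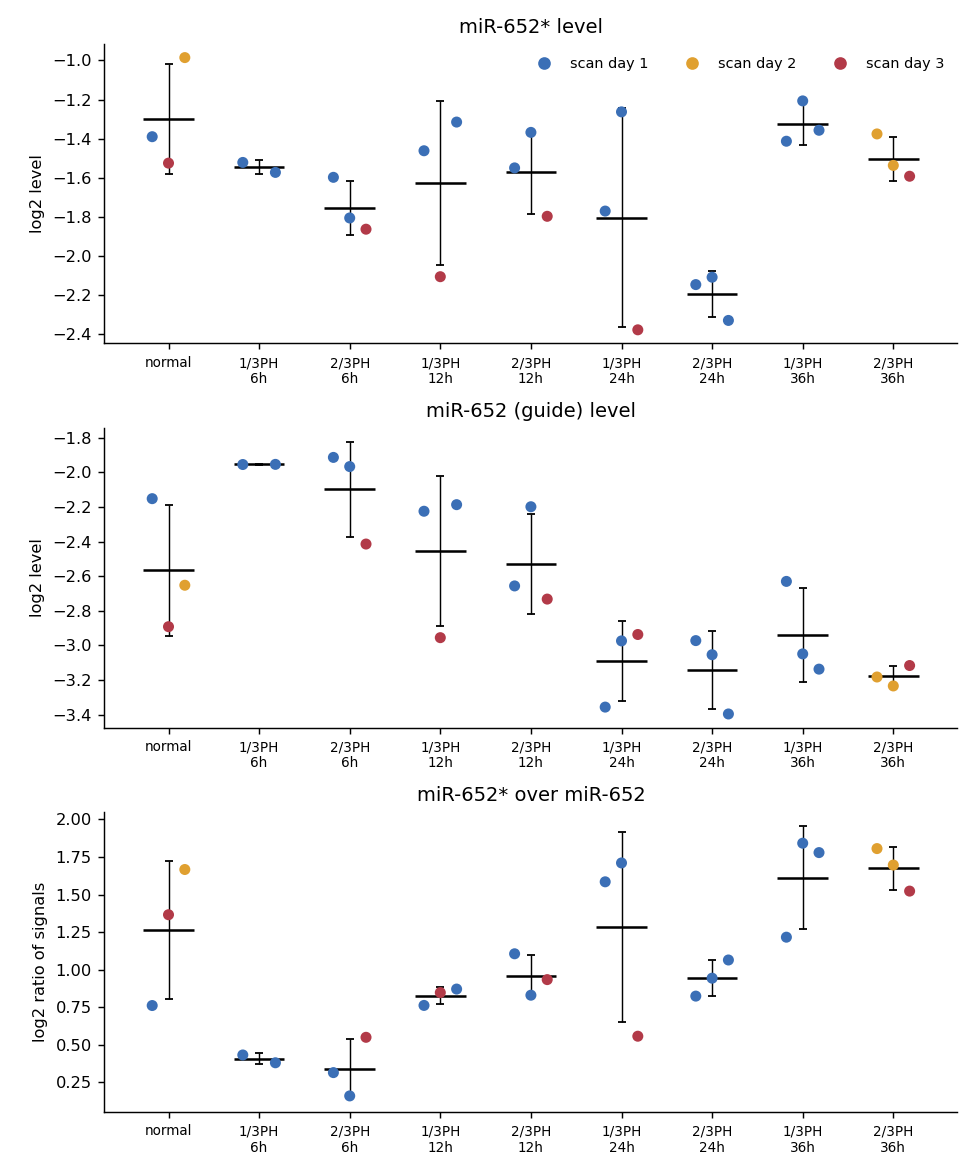
Log2 level of miR-652* (top), log2 level of its guide miR-652 (middle) and their log2 ratio within each array (bottom), by group (x axis). Points are single arrays coloured by scan day, and bars and whiskers are the mean ± SD. The star is lowest at 24 h after 2/3PH, the guide is highest at 6 h, and the 5 ratios at 6 h lie between 0.16 and 0.55, under the normal values of 0.76 to 1.67.

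miR-511* was detected in every liver while miR-511 was detected in none, so no ratio could be formed. Its log2 level was -2.34, -2.74 and -3.02 in normal liver, and -3.36, -3.45 and -3.36 at 36 h after 2/3PH. All 3 livers at 36 h lay under the lowest normal liver. The change was -0.69 (SE 0.198, adjusted p = 0.0142, limma), a signal 1.62-fold lower. At 24 h after 2/3PH the levels were -3.08, -2.94 and -3.66, and the change was -0.53 (adjusted p = 0.0735, limma). After 1/3PH miR-511* was at -2.96, -2.94 and -2.90 at 24 h and at -2.86, -2.92 and -3.04 at 36 h, within or just below the normal values. The difference between the operations at 36 h was -0.45 (SE 0.198, adjusted p = 0.159, limma). The earlier livers gave no call. Their levels after 1/3PH were -2.66 and -2.47 at 6 h and -2.63, -3.21 and -2.67 at 12 h, and those after 2/3PH were -2.44, -2.46 and -2.63 and then -2.92, -2.30 and -2.41. The value of -3.21 is the floor of replicate 2, the array with the low total signal, and so a bound only.

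The decrease of miR-511* depends on how the arrays are grouped. The group 2/3PH 36h had no array of the first scan day. With the scan day as a block the change was -0.56 (adjusted p = 0.0532), with the slide as a fixed block it was -0.39 (adjusted p = 0.512), and with the slide as a random block it was -0.65 and passed (adjusted p = 0.0222, limma). Without normal replicate 1 it was -0.51 (adjusted p = 0.116), and without 2/3PH 36h replicate 2 it was -0.66 (adjusted p = 0.0509, limma). With a normexp background correction it turned to 0.56 (adjusted p = 0.203, limma), a setting in which the median change of all miRNAs was 0.64.

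Because miR-511 lies in a gene of macrophages and sinusoidal endothelium, the markers of leukocytes and of endothelium are given beside it. Of the 5 markers listed 4 were on the array, 2 were on all 26 arrays and miR-142-5p was on none. At 24 h after 2/3PH miR-142-3p had fallen by 1.05 (adjusted p = 0.0126) and miR-150 by 0.58 (adjusted p = 0.0138), and miR-223 had changed by -0.24 (adjusted p = 0.558, limma). At 36 h the changes were -0.60 (adjusted p = 0.122) for miR-142-3p, -0.74 (adjusted p = 0.00247) for miR-150 and 0.10 (adjusted p = 0.821, limma) for miR-223. The summed signal of the leukocyte markers, relative to the scaling value, was 0.662 to 0.786 in normal liver, 0.423 to 0.571 at 24 h and 0.543 to 0.656 at 36 h after 2/3PH. Their part in the decreases of miR-652* and miR-511* was not tested, and in whole liver fewer cells of a type cannot be told apart from less RNA per cell. The summed signal of the endothelial, stellate and vessel wall markers was 3.73 to 4.61 in normal liver and 3.41 to 3.62 at 36 h after 2/3PH, without overlap, and 3.57 to 4.50 at 24 h. Of these 5 markers miR-145 was on no array, and none of the other 4 passed the test at 36 h, with changes from -0.24 for miR-126 to 0.14 for miR-214. Their part in the decrease of miR-511* was not tested. The hepatocyte markers miR-122, miR-192 and miR-194 were detected on all arrays, and miR-124 and miR-9, markers of neurons, on none. At 24 h after 2/3PH miR-192 was lower by the test, with a change of -0.29 (adjusted p = 0.0374, limma). miR-122 (-0.09, adjusted p = 0.671) and miR-194 (-0.004, adjusted p = 0.985, limma) did not pass there. No hepatocyte marker passed at 36 h after 2/3PH.

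**Figure D4:**
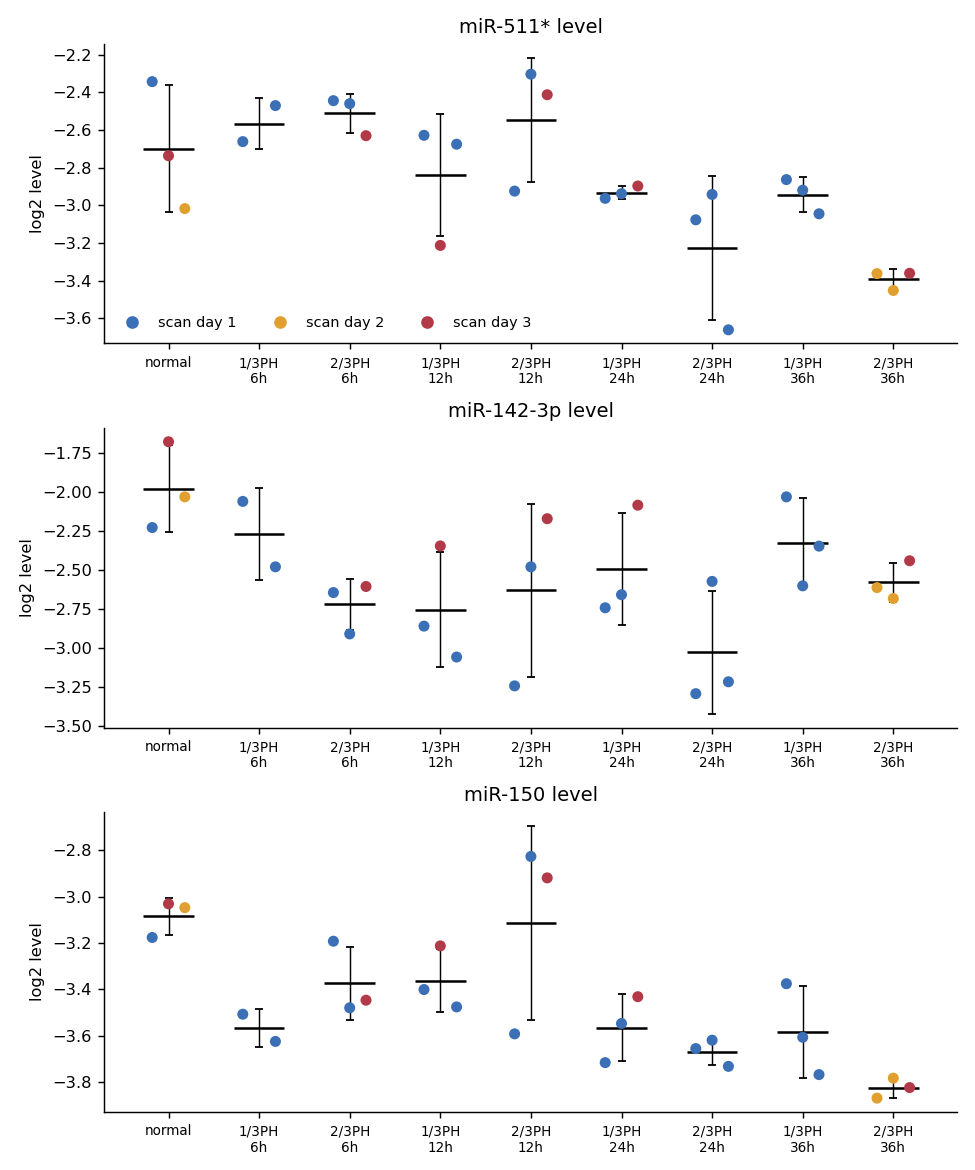
Log2 level of miR-511* (top), and of the leukocyte markers miR-142-3p (middle) and miR-150 (bottom), by group (x axis). Points are arrays coloured by scan day, bars and whiskers the mean ± SD. At 36 h after 2/3PH the 3 points of miR-511* lie between -3.45 and -3.36, under the normal values of -3.02 to -2.34. The leukocyte marker miR-223 is not drawn. Its change after 2/3PH was -0.24 at 24 h and 0.10 at 36 h, without a call.

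Of the other pairs, none changed its ratio past the test. Of the 40 star to guide ratios (10 pairs at 4 times) against normal liver 1 passed after 2/3PH, the miR-652 value given above, and 0 after 1/3PH, where limma gave 4 with an unadjusted p under 0.05, 3 of them with both strands detected throughout. The share over all 14 pairs was 1.79% after 2/3PH, 0% after 1/3PH and 0% between the operations, where 1 star ratio had an unadjusted p under 0.05 in limma, without detection throughout. The mean log2 ratio over all arrays was -7.25 for miR-122, -2.30 for miR-30a, -2.02 for miR-30e, -1.07 for miR-140, 1.06 for miR-652 and, with both strands at the floor on 1 array, 1.26 for miR-150. No mean ratio is given for the other 4 pairs, since let-7b* was detected on 17 arrays, miR-31* on 15, miR-466b-1* on 14 and miR-466b-2* on 7, with the guide miR-466b on 21. The star gave more signal than the guide in miR-652 and in miR-150. The signal of a miRNA is the sum of its probes, and these values do not say which strand was more abundant.

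The log2 ratio of miR-122* to miR-122 did not pass the test in any comparison. It was -7.46, -6.75 and -7.16 in normal liver, and over all 26 arrays it ran from -7.60 to -6.69 with an SD of 0.258. The level of miR-122* was 0.03, 0.46 and 0.26 in normal liver, -0.35, 0.16 and 0.07 at 24 h and -0.15, 0.02 and 0.59 at 36 h after 2/3PH, and its guide ran from 7.11 to 7.60. The change of miR-122* was -0.29 (adjusted p = 0.409) at 24 h and -0.09 (adjusted p = 0.808, limma) at 36 h after 2/3PH, less than the spread among the arrays at 36 h. The highest value in each of the 6 groups with a third-day array was the third-day array, as described above.

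The miR-30 stars come from a family whose guides are abundant in liver and share one seed, GUAAACA. The log2 ratio of miR-30a* to miR-30a was -2.17, -2.35 and -2.68 in normal liver, and -2.0, -0.86 and -2.16 at 12 h after 1/3PH. The change there was 0.72 (SE 0.260, adjusted p = 0.0797, limma). For miR-30e it was -2.0, -1.89 and -2.37 in normal liver and -1.64, -0.72 and -1.90 at 12 h after 1/3PH, a change of 0.66 (SE 0.275, adjusted p = 0.118, limma). In both pairs replicate 2, the array with the low total signal, was the highest, and neither passed. With the scan day as a block the changes were 0.69 for miR-30a and 0.59 for miR-30e, and without the third-day arrays, replicate 2 among them, they were 0.34 and 0.41, again without a call. The miR-30a ratio passed under 6 of the alternatives and the miR-30e ratio under 2, all of which kept replicate 2. At 6 h after 2/3PH the ratio of miR-30e was -1.82, -1.21 and -1.40, above all 3 normal livers, with a change of 0.61 (SE 0.275, adjusted p = 0.185, limma). At that time the star was at -3.71, -3.28 and -3.27 against -3.69, -3.25 and -3.74 in normal liver, while the guide was at -1.89, -2.06 and -1.88 against -1.69, -1.36 and -1.37. The guide values did not overlap those of normal liver, and the star values did. The change of the guide miR-30e after 2/3PH was -0.47 (adjusted p = 0.0703) at 6 h. At 12 h it was -0.53 and passed (adjusted p = 0.0192, limma), while miR-30e* changed by -0.42 (adjusted p = 0.37, limma).

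**Figure D5:**
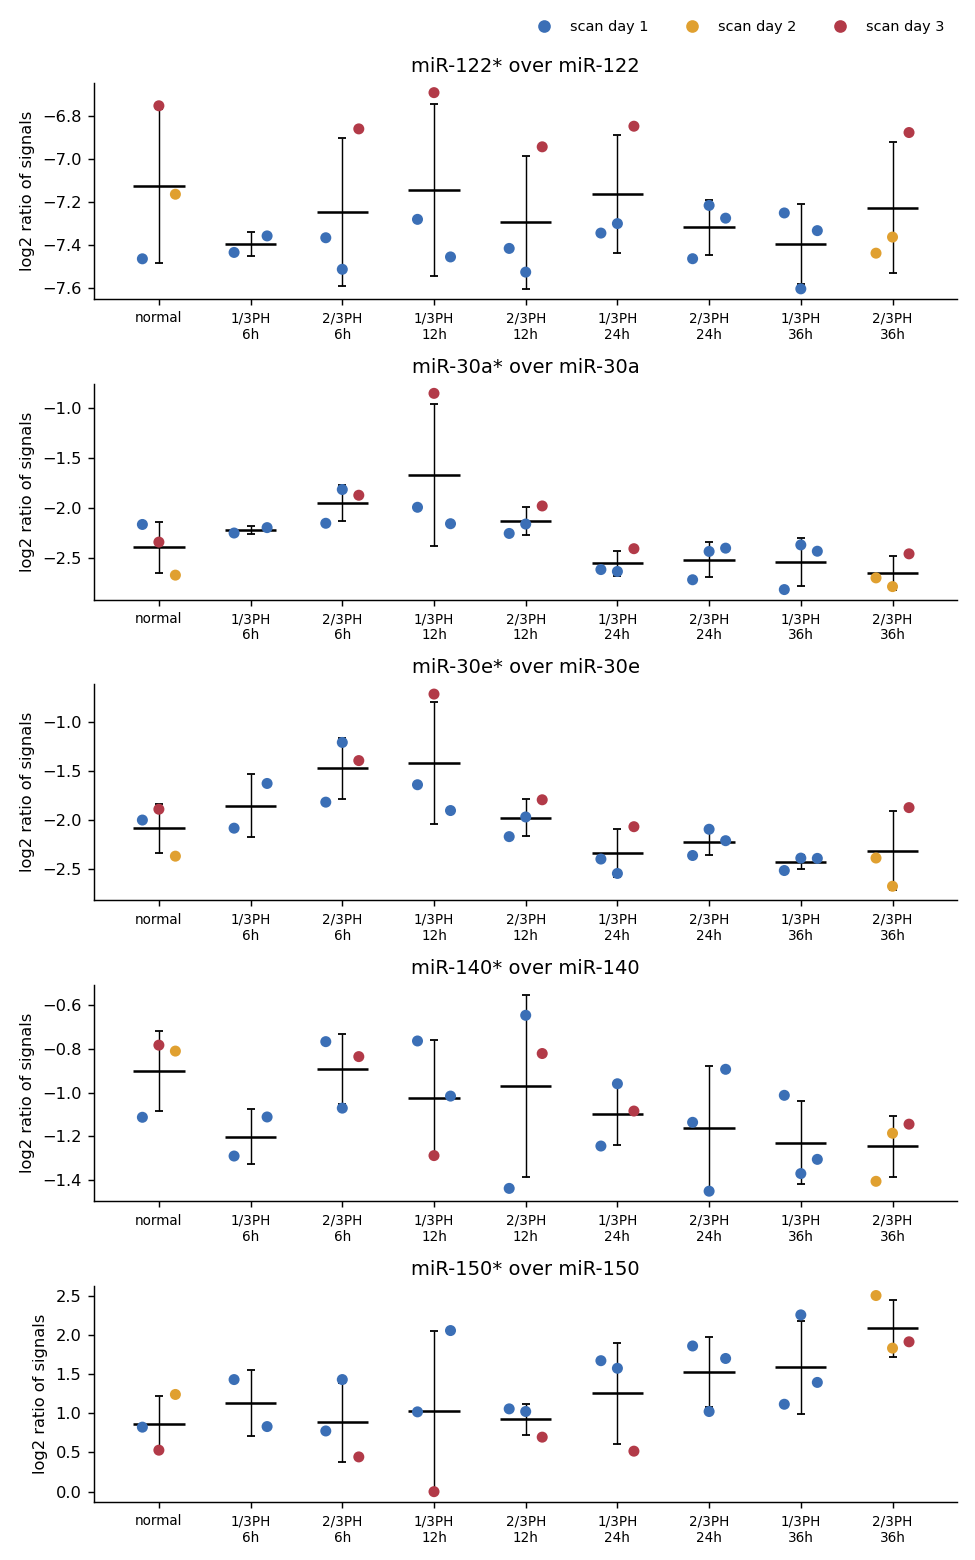
Log2 ratio of star to guide within each array for miR-122, miR-30a, miR-30e, miR-140 and miR-150 (y axes, each with its own range), by group (x axis). Points are arrays coloured by scan day, and bars and whiskers are the mean ± SD. For miR-122 the third-day arrays are the highest of their groups, for miR-30a and miR-30e the highest point is replicate 2 of 1/3PH 12h, and for miR-150 that array is at 0.00 because both strands were at the floor.

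miR-150 is a miRNA of mature lymphocytes, and its ratio did not pass the test in any comparison. The guide was at -3.18, -3.03 and -3.05 in normal liver and at -3.87, -3.78 and -3.82 at 36 h after 2/3PH, and miR-150* at -2.35, -2.50 and -1.81 and then at -1.37, -1.95 and -1.91. The guide fell by 0.74 as given above, and all 3 livers lay under the normal livers. The star values of the 2 groups overlapped. The log2 ratio was 0.82, 0.53 and 1.24 in normal liver and 2.50, 1.83 and 1.91 at 36 h, without overlap, and the change was 1.22 (SE 0.439, adjusted p = 0.0803, limma) and 1.28 with the scan day as a block. The ratio was 1.86, 1.02 and 1.70 at 24 h after 2/3PH, and at 36 h after 1/3PH it was 1.12, 2.26 and 1.39, each overlapping normal liver.

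For miR-140 the ratio lay between -1.45 and -0.65 on all arrays. Its star, at -3.33, -3.04 and -3.07 in normal liver, was at -3.99, -3.80 and -3.37 at 36 h after 2/3PH, and the change of -0.57 did not pass (adjusted p = 0.11, limma). miR-202* was at -1.16, -1.90 and -1.27 in normal liver and -0.17, -0.60 and -0.57 at 36 h after 2/3PH, all 3 above the normal livers, and the change of 0.99 (SE 0.464, adjusted p = 0.139, limma) did not pass. The within-group SD of miR-202* was 0.60, against 0.22 (miR-30a*) to 0.31 (miR-140*) for the other stars detected on every array. Its SD was largest, 1.30, at 12 h after 1/3PH. There replicate 2, the array with the low total signal, was at -3.13, beside its floor of -3.21. The larger SD of miR-202* can therefore not be read as spread among rats alone. Within groups the ratio was no steadier than the levels it was made from in miR-122, where the SD was 0.24 for the star, 0.13 for the guide and 0.29 for the ratio. In miR-652 these were 0.28, 0.28 and 0.31, and in miR-140 they were 0.31, 0.18 and 0.23.

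Stars near the limit of detection were called in some groups and not in others. They are described because they were called on all arrays of some group, so a full count in 1 group follows from that choice. For miR-455* that group was normal liver alone, and for miR-31* and miR-466b-2* it was 2/3PH 36h alone. miR-362* was detected on 3 of 3 normal livers, on 2 of 5 at 6 h, on 0 of 6 at 12 h, and on 12 of 12 livers at 24 and 36 h. miR-455* was detected on 3 of 3 normal livers and on 5 of the 23 livers after PH. miR-466b-1* and miR-466b-2* were each detected on 2 normal livers and on 3 of 3 at 36 h after 2/3PH, and miR-466b-2* on 2 other livers. miR-466b-1* was also detected on 3 of 3 livers at 6 h after 2/3PH, and on 14 of the 26 livers in all. miR-31* was detected on 15 livers and its guide on all 26. The level of miR-362* was above the floor on 11 arrays and that of miR-455* on 2, so that these counts are calls at the edge of the measurement, and no change of level passed the test.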

How the data were processed

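Rat miRNA arrays were scanned and read by the authors with Agilent Feature Extraction 10.7.3.1, and the deposited files hold spot intensity values (background-subtracted signal), the software's total gene signal and its detection calls. The deposited series table holds log2 values already normalized between arrays and was used only as an alternative. After removal of flagged outlier spots, the mean over the spots of each probe was taken and these means were added up per miRNA (677 miRNAs, 1644 probes). Signals were scaled to the array's 75th percentile of 109 bright probes, raised to a floor (the dimmest probe that passed the software's background test on that array) and put on the log2 scale. No spot was saturated. Guides were matched by the name without the asterisk (204 stars) or also without the hairpin number (34), and 1 star had none. Levels (144 miRNAs) and ratios (14 pairs) were fitted with limma 3.58.1 in R 4.3.3 (lmFit, eBayes) over 26 arrays and 9 groups, with 12 contrasts and Benjamini-Hochberg adjustment, threshold 0.05. A ratio call also needed both strands detected on every array of both groups. The residual degrees of freedom were 17. In simulated data with a log2 change of 1.5, the level fit recovered 90.7% of the changed miRNAs for 2/3PH 36h against normal and the ratio fit 66.7% of the changed pairs. Detection is the software's call. Values are named for every star detected on all arrays of a group, per array for stars with a call and for the pairs detected throughout. Members, lists and tests were chosen with earlier results of these data known. Alternatives changed the scaling, background, filter, floor, block, fit and adjustment, and left out each array. 1 star name was excluded. Python 3.11.15, numpy 2.4.6, pandas 2.3.3 and matplotlib 3.10.9 were used. The number of arrays limits the precision.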

Additional observations from a re-analysis of the deposited data

How the results depend on the processing

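The main counts were 0 star level calls after 1/3PH, 2 after 2/3PH and 0 between the operations, and 0, 1 and 0 ratio calls. Scaling mattered most for levels: with the 75th percentile over all probes, which put the median change of all miRNAs at 24 h after 2/3PH at -0.41, there were 7, 0 and 11 level calls, and without scaling, under normexp and with the slide as a fixed block (which could not be fitted for 2/3PH at 24 h) 0 after 2/3PH. Quantile normalization and the first scan day alone gave 1 level call after 2/3PH, the deposited log2 values 1, 4 and 2 in the order above, and a floor of 1 signal unit 1 after 1/3PH and 5 after 2/3PH. Between the operations the fit of only the groups compared gave 1 and leaving out the third scan day 1. The unadjusted p gave 4, 5 and 3 level calls. For ratios after 1/3PH, the filter of detection on at least 1 array gave 1 call, on every array 3, the slide as a random block 1, the first scan day alone 2 and the unadjusted p 3. After 2/3PH there were 0 ratio calls with quantile normalization, normexp, the deposited values, the filter of at least 1 array, the slide or scan day as a fixed block and the first scan day alone, 2 with the filter of every array and 3 at the unadjusted p. Leaving out each array gave 0 to 2, 1 to 4 and 0 to 0 level calls, 0 to 2, 0 to 2 and 0 to 0 ratio calls, and 18 to 22 stars detected on every array of a group. With most spots of a probe well above background as the criterion there were 8 such stars.

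miR-652* at 24 h after 2/3PH was lower under all 15 alternatives run for it (-1.36 to -0.31) and kept its call in 12 of them and in 24 of 26 fits without 1 array. miR-511* at 36 h kept its call in 8 of 15 and in 24 of 26, and turned to 0.56 under normexp. The miR-652 ratio at 6 h was lower in all 16 (-0.98 to -0.41) but kept its call in 8, and in 19 of 26 fits without 1 array, where it lay between -1.18 and -0.72. It was lost without normal replicate 2 or 3, 1/3PH 6h replicate 1 or 2, 2/3PH 6h replicate 1 or 2, or 2/3PH 36h replicate 2. Among uncalled values the sign turned for miR-30a* at 12 h after 1/3PH (-0.32 without scaling, -0.62 with all probes), miR-30e* between operations at 12 h (0.057 with all probes), miR-511* between operations at 36 h (0.037 with all probes, 0.57 under normexp) and miR-140* at 36 h after 2/3PH (0.64 under normexp). The cause was not tested. The scan-day alternatives were chosen after seeing the data. No paired analysis was possible because the labels give no pairing of rats across groups. The self-test recovered fewer ratios than levels, and signals near the floor limit what can be seen of weak stars.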
